A study of Mus musculus with 12 samples.

Results

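The genes described here encode the subunits of the oxidative phosphorylation machinery of mouse bone marrow-derived dendritic cells. They were taken by the spelling of their symbols: Nduf genes, Sdha to Sdhd and the Sdha-prefixed assembly factors, Uqcr, Cox4i, Cox5, Cox6, Cox7, Cox8 and Atp5 genes. RefSeq lists 100 protein-coding mouse genes so spelled. The arrays carried named probes for 89 of them (112 probes), and 85 of the 89 had a probe well above background on every array of at least 1 time group. These 85 stood among 18407 genes tested. They comprised 34 genes of complex I, 4 of complex II, 8 of complex III, 15 of complex IV including Ndufa4, 17 of complex V and 7 assembly factors, which the spelling also takes in. Cox4i2, Cox7b2, Cox8b and Cox8c were on the array and did not pass the background filter. The other 11 genes, among them Ndufv2, Ndufa11, Ndufb1 and Ndufa4l2, had no named probe and were not analysed here.

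Bone marrow of female mice aged 6 to 8 weeks was cultured in GM-CSF (20 ng/ml). Floating and loosely attached cells were collected on day 7 and are labelled immature dendritic cells. RNA labelled 0 h stands for the start of exposure. RNA labelled 6, 12 and 24 h came from cells kept for that time with γ-PGA nanoparticles at 300 µg/ml, γ-PGA being poly(γ-glutamic acid), a biodegradable polymer. Each time had 3 samples, which the series design calls independent experiments. No culture without particles was kept for the same times, so exposure and time in culture cannot be told apart. No source used here names the strain.

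Oxidative phosphorylation makes most of the ATP of a resting cell. Complex I (NADH dehydrogenase) and complex II (succinate dehydrogenase, also an enzyme of the citric acid cycle) pass electrons to ubiquinone, complex III passes them to cytochrome c, complex IV passes them to oxygen, and complex V uses the proton gradient so formed to make ATP. Most subunits are encoded in the nucleus and are the ones measured here, while a few are encoded in mitochondrial DNA. Dendritic cells activated through Toll-like receptors are known to shift towards glycolysis, and nitric oxide made by the inducible synthase Nos2 inhibits complex IV.

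The promoters of 4 members are printed, chosen after the values were seen from the 9 members called in the same direction by both data sources at 6 and 12 h. Cox7a2l (lower), Atp5md and Uqcrfs1 (both higher) had the largest changes of the 9, by the least of their 4 values. Ndufa6 had the lowest change of complex I at 6 h in both sources, while its ratio at 12 h changed the least of the 9. Each line gives the 250 bases before the RefSeq start site of the assembly GRCm38.p6 in the direction of the gene, all 4 on the minus strand. Cox7a2l lies at chr17:83514334-83514583, Ndufa6 at chr15:82354292-82354541, Uqcrfs1 at chr13:30545317-30545566 and Atp5md at chr19:47090648-47090897. Capitals mark a match to a motif searched, the NRF1 core in Ndufa6 and the ETS motif in Atp5md.
Cox7a2l: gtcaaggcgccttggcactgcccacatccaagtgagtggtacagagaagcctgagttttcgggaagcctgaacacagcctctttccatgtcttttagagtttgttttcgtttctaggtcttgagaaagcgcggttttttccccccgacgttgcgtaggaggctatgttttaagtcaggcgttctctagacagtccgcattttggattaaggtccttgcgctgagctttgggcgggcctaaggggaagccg
Ndufa6: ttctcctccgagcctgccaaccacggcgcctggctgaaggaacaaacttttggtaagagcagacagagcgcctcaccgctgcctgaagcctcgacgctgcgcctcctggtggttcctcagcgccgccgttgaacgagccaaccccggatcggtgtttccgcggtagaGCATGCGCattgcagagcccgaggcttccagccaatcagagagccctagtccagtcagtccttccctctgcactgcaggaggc
Uqcrfs1: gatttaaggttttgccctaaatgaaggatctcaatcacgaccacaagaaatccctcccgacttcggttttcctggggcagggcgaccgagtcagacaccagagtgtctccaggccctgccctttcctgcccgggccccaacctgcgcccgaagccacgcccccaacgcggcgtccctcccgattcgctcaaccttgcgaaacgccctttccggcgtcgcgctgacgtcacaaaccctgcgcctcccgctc
Atp5md: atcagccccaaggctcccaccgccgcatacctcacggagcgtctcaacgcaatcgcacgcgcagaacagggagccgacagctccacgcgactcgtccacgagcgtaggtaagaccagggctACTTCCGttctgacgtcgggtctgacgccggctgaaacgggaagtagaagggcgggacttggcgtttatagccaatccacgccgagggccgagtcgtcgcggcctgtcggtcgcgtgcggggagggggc

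RefSeq windows of 300 bases around the start (250 before, 50 after) were matched to 72 of the 85 members and searched on both strands. The core of the NRF1 site, GCGCATGC or GCATGCGC, stood in 11 of the 72 members (15.3%) and in 2.71% of all 32851 windows, or in 3.05% of all 27025 genes. NRF1 is a transcription factor known for binding promoters of nuclear genes of the respiratory chain. The site of GABPA and other ETS factors, ACTTCCG or CGGAAGT, stood in 13 members (18.1%) and in 6.42% of windows (7.20% of genes). The YY1 site, AAGATGG or CCATCTT, stood in 11 members (15.3%) and in 6.34% of windows (7.28% of genes). The site of the estrogen-related receptors, TCAAGGTCA or TGACCTTGA, stood in 2 members (2.78%) and in 0.423% of windows (0.466% of genes). Cox7a2l and Uqcrfs1 held no match in the stretches printed. These are matches of letters, and no binding was measured.

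Each sample has a scanner value and a value in the table of ratios that the authors deposited. The scanner values are log2 spot intensities after subtraction of the array's 75th percentile. The deposited ratios are relative to the median of the 3 values at 0 h, and their log2 is used here. A gene is said to have risen, fallen or been called where its adjusted p in the limma fit was under 0.05, at any size of change. The arrays lay on 3 slides: all of 0 h shared slide 1 with replicate 1 of 6 h, the remaining 6 h arrays shared slide 2 with replicates 1 and 2 of 12 h, and all of 24 h shared slide 3 with replicate 3 of 12 h. The share of spots well above background ranged from 50.9% to 59.6% over the arrays. The scanner arrays labelled 24 h stood apart from their table columns: their group mean correlated at 0.994 with that of the 0 h arrays and at 0.928 and 0.914 with those of the 6 and 12 h arrays. Over all genes the changes from 0 h in the sources correlated at 0.73 at 6 h, 0.54 at 12 h and -0.07 at 24 h, and over the 85 members at 0.73, 0.24 and -0.48. These values describe genes that share arrays and labels. Which source carries the samples of 24 h could not be settled, and each source is therefore given apart. In bulk RNA, fewer cells of a type and less RNA per cell cannot be told apart.

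At 6 h the scanner values of the members were mostly at or below their start. Of the 85 members, 42 fell (39.6% of all genes did) and 7 rose (32.1% of all genes did), with a median log2 change of -0.14 against -0.06 over all genes. At 12 h 36 members fell (39.5% of all genes) and 16 rose (36.2% of all genes), with a median of -0.11 against -0.03. The changes were small. Only 2 members fell at least 2-fold at 6 h and 4 at 12 h and none rose so far, while 26.1% and 30.6% of all genes moved at least 2-fold in either direction. The limma F-test over the time course called 63 members (85.1% of all genes) in the scanner values and 77 members (86.1% of all genes) in the deposited ratios.

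The number of members called depended on how the arrays were scaled to each other, and so did their share beside all genes. With the array median subtracted, 17 fell and 3 rose at 6 h and 18 fell and 8 rose at 12 h. The falls were then 20% and 21.2% of the members, below the 32.4% and 32.5% of all genes under that scaling. With the 75th percentile taken over detected probes, 48 fell and 6 rose at 6 h and 62 fell and 6 rose at 12 h (56.5% and 72.9% lower, beside 42.7% and 45.8% of all genes). Quantile normalization gave 68 falls and 3 rises at 6 h and 73 and 2 at 12 h (80% and 85.9% lower, beside 41.8% and 42.7% of all genes). Members called lower under all 4 scalings numbered 17 at 6 h and 18 at 12 h. Those called higher under all 4 were Atp5md and Uqcrfs1 at 6 h and Ndufs4 and Uqcrfs1 at 12 h. For calls kept under all 4 the share of all genes is not given here, so none is set beside these counts. With the slide as a fixed block, 32 fell and 8 rose at 6 h and 19 fell and 12 rose at 12 h. The share of all genes called under that fit is not given here, so these counts are not set beside it. Within slide 1, where 1 array at 6 h met 3 at 0 h, the median change of the members was -0.08 and that of all genes -0.07.

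**Figure D1:**
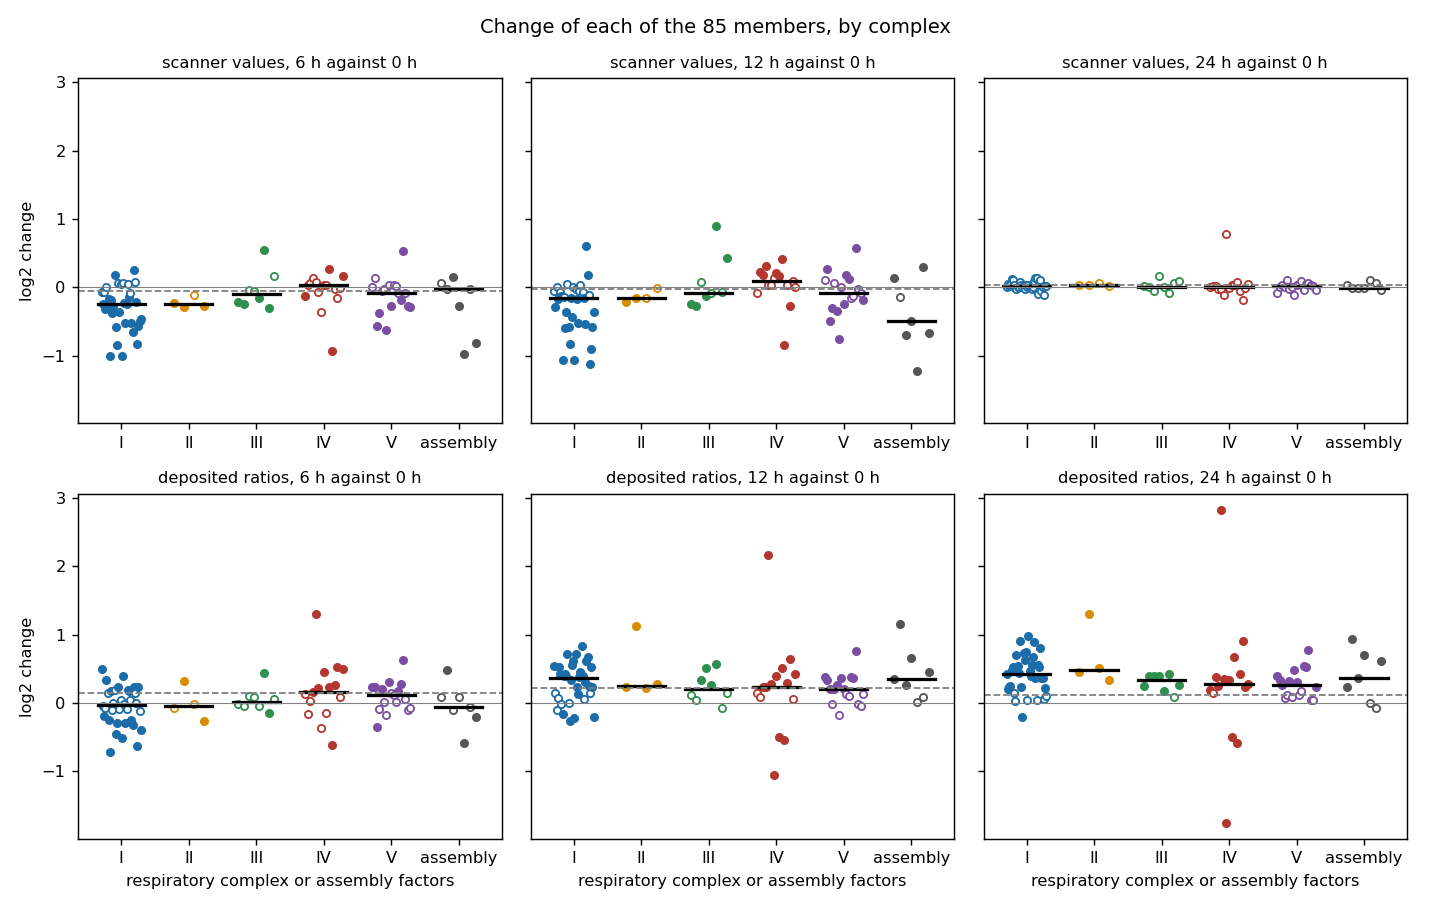
Log2 change of each of the 85 members from 0 h (vertical axis) by complex (horizontal axis), scanner values above and deposited ratios below; filled points were called at an adjusted p under 0.05, black bars are medians of a complex and the dashed line is the median of all genes. In the scanner values at 6 h complex I had a median of -0.24 and complex IV 0.03 (below all genes under quantile normalization), and at 24 h no member was called there while 64 were higher in the deposited ratios.

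In the deposited ratios 27 members rose (40.9% of all genes) and 17 fell (30.3% of all genes) at 6 h. At 12 h 55 rose (47.1% of all genes) and 7 fell (26.8% of all genes). At 24 h 64 rose (41.3% of all genes) and 4 fell (31.2% of all genes). The median change of the members was 0.03, 0.26 and 0.36 at 6, 12 and 24 h, and that of all genes was 0.14, 0.22 and 0.12. The columns thus differed in their centre, so the same fit was run after each column's median had been subtracted. It called 4 members higher (25.9% of all genes) and 11 lower (27.9% of all genes) at 6 h. At 12 h it called 9 higher (25.2% of all genes) and 8 lower (29.9% of all genes), and at 24 h 27 higher (27.4% of all genes) and 3 lower (28.1% of all genes). Quantile normalization of the columns left 2 higher and 4 lower at 6 h, 4 and 2 at 12 h and 10 and 2 at 24 h, where 15.8%, 16.9% and 15.6% of all genes were higher and 18.1%, 17.4% and 17.2% lower. In this source 1 member was called at least 2-fold higher at 6 h, 3 were higher and 1 lower at 12 h, and 2 were higher and 1 lower at 24 h. Of all genes 25%, 27.8% and 26.3% moved at least 2-fold in either direction.

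In complex I falls outnumbered rises in the scanner values. Of its 34 members 23 fell and 2 rose at 6 h, and 19 fell and 2 rose at 12 h, with medians of -0.24 and -0.15. The falls made up 67.6% and 55.9% of the complex, beside 39.6% and 39.5% of all genes, and the rises 5.88% at both times, beside 32.1% and 36.2%. By share, complex II at 6 h (3 of 4) and the assembly factors at 12 h (4 of 7) had more falls. Under all 4 scalings 11 of the 34 were called lower at 6 h and 11 at 12 h (share of all genes not given here). Its median lay below that of all genes by 0.18 at 6 h and by 0.47 under quantile normalization. Falls were found in different parts of the enzyme: the flavoprotein Ndufv1, which binds NADH (-0.50 and -0.58 at 6 and 12 h), the iron-sulfur subunits Ndufs7 and Ndufs8, the core subunit Ndufs3, and membrane-arm accessory subunits such as Ndufb5, Ndufb8, Ndufb10 and Ndufb11. These genes are named because they were called lower at 6 h under all 4 scalings, a choice made after their values were seen.

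Ndufa6, an accessory subunit of the LYR family, had scanner levels of 3.71, 3.76 and 3.73 at 0 h, 2.78, 2.65 and 2.74 at 6 h, 2.72, 2.67 and 2.63 at 12 h and 3.71, 3.72 and 3.74 at 24 h. Samples of a time that all lay above or all below those at 0 h were common over all genes. In the scanner values these were 33.9% above and 41.5% below at 6 h, and 38% and 41.4% at 12 h. In the ratios they were 41% and 31.3%, 48.5% and 28.7%, and 44.4% and 33.7% at 6, 12 and 24 h. All 6 samples of Ndufa6 at 6 and 12 h lay below all samples at 0 h, without overlap. Those at 24 h overlapped the start. The log2 change was -1.01 ± 0.0426 (SE, limma, 3 arrays a group) at 6 h with an adjusted p of 9.09e-09 and -1.06 at 12 h with 5.02e-09. With the slide as a block it was -0.95 at both times. In the deposited ratios it fell by 0.72 on the log2 scale at 6 h (adjusted p 8.02e-07, limma). At 12 h the ratio was 0.16 lower in log2 (adjusted p 0.0243), a call that was lost with the slide as a block (change 0.01), and at 24 h it differed by 0.03.

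Ndufb5, an accessory subunit of the membrane arm, had scanner levels of 1.74, 1.74 and 1.84 at 0 h, 0.88, 0.66 and 0.76 at 6 h and 0.67, 0.73 and 0.69 at 12 h. It fell by 1.00 and 1.07 on the log2 scale, with no overlap with the start. In the ratios it fell by 0.51 at 6 h and 0.22 at 12 h.

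Ndufs7 carries an iron-sulfur cluster of complex I close to the ubiquinone site. Scanner levels of the gene were 4.27, 4.24 and 4.28 at 0 h, 3.51, 3.30 and 3.48 at 6 h, 3.14, 3.05 and 3.23 at 12 h and 4.23, 4.28 and 4.27 at 24 h. The groups at 6 and 12 h did not overlap with the start or with each other. The changes were -0.83 at 6 h (adjusted p 8.99e-07) and -1.12 at 12 h (7.02e-08), both in the limma fit. In the deposited ratios Ndufs7 fell by 0.63 at 6 h on the log2 scale, differed by 0.15 at 12 h (adjusted p 0.0747) and was called higher at 24 h by 0.36. That last value turned to -0.05 under quantile normalization, and with the slide as a block its adjusted p was 0.0521.

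Ndufs8, another iron-sulfur subunit, went in opposite directions in the sources. Per sample, the scanner levels were 2.06, 1.72 and 1.77 at 0 h, 1.39, 1.09 and 1.36 at 6 h and 0.97, 0.81 and 1.05 at 12 h, all below the start. The log2 deposited ratios were 0.26, 0.35 and 0.31 at 6 h and 0.58, 0.66 and 0.53 at 12 h, all above those at 0 h, which were 0, -0.03 and 0.22. The scanner change at 12 h was -0.91 and the table change 0.52. The table's rise was not called after subtraction of column medians, at either time, and at 6 h quantile normalization gave -0.07.

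Ndufs4, which is needed for the assembly and stability of complex I, rose in the scanner values while most of the complex did not. Its scanner levels were 3.82, 3.82 and 3.84 at 0 h, 4.19, 4.03 and 4.03 at 6 h and 4.42, 4.57 and 4.30 at 12 h. Each later group lay above the start without overlap. The change was 0.26 at 6 h and 0.60 at 12 h (adjusted p 1.96e-05, limma), and 0.83 at 12 h with the slide as a block. In the deposited ratios it was 0.24, 0.61 and 0.52 at 6, 12 and 24 h, and after subtraction of column medians it was called at 24 h and not at 6 or 12 h. Complex I in the deposited ratios had 9 rises and 11 falls at 6 h, 23 and 4 at 12 h and 27 and 1 at 24 h. The rises were 26.5%, 67.6% and 79.4% of the complex, beside 40.9%, 47.1% and 41.3% of all genes. The falls were 32.4%, 11.8% and 2.94%, beside 30.3%, 26.8% and 31.2%. After subtraction of column medians 15 members of complex I were called higher and none lower at 24 h, against 27.4% and 28.1% of all genes. Ndufb6, another membrane-arm subunit, changed by 0.98 at 24 h as deposited and by 0.89 after subtraction. Its log2 ratios were -0.09, 0 and 0.17 at 0 h, 0.53, 0.35 and 0.36 at 6 h, 0.77, 0.76 and 0.71 at 12 h and 1.03, 0.98 and 1.00 at 24 h, each time above the one before. In the scanner values it was not called (0.07, -0.03 and 0.03).

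Ndufa1, an accessory subunit encoded on the X chromosome, had the highest table change of complex I at 6 h, 0.50 (adjusted p 0.000148, limma), and a scanner change of -0.07. Members called lower in the scanner values and higher in the ratios at 12 h included Ndufa8, Ndufa9, Ndufb2, Ndufb3 and Ndufb7. Their scanner changes at 12 h were -0.59, -0.36, -0.15, -0.44 and -0.17, and their table changes 0.43, 0.40, 0.34, 0.56 and 0.24. Ndufb3 lay at 4.17, 4.27 and 4.24 at 0 h and at 3.84, 3.77 and 3.74 at 12 h in the scanner values, and its log2 ratios at 12 h were 0.58, 0.66 and 0.54. After subtraction of column medians none of these 5 was called in the ratios at 12 h, and Ndufb7 was at -0.03.

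Complex II has 4 subunits, all encoded in the nucleus. Sdha binds FAD, Sdhb carries the iron-sulfur clusters, and Sdhc and Sdhd anchor the enzyme in the membrane. In the scanner values at 6 h Sdha, Sdhb and Sdhd fell by 0.23, 0.29 and 0.27 on the log2 scale, and Sdhc differed by -0.11 (adjusted p 0.226, limma). None of the 4 was called at 6 or 12 h with the array median subtracted. At 12 h Sdha and Sdhb fell by 0.21 and 0.15, and Sdhc and Sdhd were not called, at -0.15 and -0.01.

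The levels of Sdha in the scanner values were 1.86, 1.90 and 1.88 at 0 h, 1.67, 1.56 and 1.71 at 6 h and 1.60, 1.62 and 1.81 at 12 h. Those of Sdhc were 2.88, 2.99 and 2.92, then 2.98, 2.70 and 2.79, then 2.80, 2.88 and 2.66. Those of Sdhd were 4.85, 4.83 and 4.87, then 4.69, 4.51 and 4.54, then 4.89, 4.74 and 4.89. Sdha lay below its start at both times, Sdhd only at 6 h, and Sdhc overlapped its start at 6 h. In the ratios Sdha, Sdhc and Sdhd had changes of 0.23, 0.22 and 0.28 at 12 h (-0.04 and -0.05 for the first pair after subtraction of column medians, and -0.27 for Sdhd under quantile normalization). At 24 h they were higher by 0.45, 0.51 and 0.33 as deposited, and Sdhd was at -0.18 under quantile normalization. The other kept probe of Sdha gave -0.06 at 12 h and 0.15 at 24 h in the ratios. In the scanner values that probe gave -0.59 at 6 h and -0.25 at 12 h.

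Sdhb differed most between the sources within complex II. Scanner levels of the gene were 4.31, 4.28 and 4.27 at 0 h, 4.10, 3.91 and 3.99 at 6 h, 4.10, 4.2 and 4.13 at 12 h and 4.31, 4.35 and 4.33 at 24 h. Its log2 deposited ratios were 0, -0.09 and 0.04 at 0 h, 0.45, 0.28 and 0.17 at 6 h, 1.12, 1.17 and 1.01 at 12 h and 1.35, 1.19 and 1.33 at 24 h. The scanner levels at 6 and 12 h lay below the start and the ratios above it, with no overlap in either. The table changes were 1.12 at 12 h (adjusted p 4.97e-07, limma) and 1.30 at 24 h (1.61e-07), and both calls were kept under each scaling of the table. The scanner change at 12 h was 0.02 with the slide as a block, so that its call was lost.

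The largest change in complex III was a rise. Of the 8 members 4 fell and 1 rose at 6 h, and 3 fell and 2 rose at 12 h in the scanner values. That is 50% and 37.5% lower, beside 39.6% and 39.5% of all genes. The core proteins Uqcrc1 and Uqcrc2 changed by -0.06 and -0.15 at 6 h and by -0.13 and -0.09 at 12 h. Uqcrh, the hinge protein beside cytochrome c1, fell by 0.30 at 6 h there and differed by -0.07 at 12 h. Uqcrfs1, the Rieske iron-sulfur protein that takes electrons from ubiquinol, was the exception. Per sample, the scanner levels were 4.21, 4.22 and 4.23 at 0 h, 4.84, 4.66 and 4.79 at 6 h, 5.23, 5.08 and 5.06 at 12 h and 4.11, 4.12 and 4.2 at 24 h. The samples at 6 h lay above the start and those at 12 h above those at 6 h. The change was 0.55 at 6 h (adjusted p 1.57e-05, limma) and 0.90 at 12 h (2.57e-07), with 0.62 and 1.05 with the slide as a block. In the deposited ratios it was 0.44, 0.57 and 0.43 at 6, 12 and 24 h, all called, and none of these calls was kept after subtraction of column medians (0.31, 0.30 and 0.34). Uqcrq, a small subunit beside cytochrome b, rose by 0.43 at 12 h in the scanner values and differed by 0.14 in the ratios. Uqcr10 and Uqcr11, small membrane subunits, fell by 0.25 and 0.27 at 12 h in the scanner values.

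Complex IV differed from complex I in its counts. Of its 15 members 2 fell and 2 rose at 6 h, and 2 fell and 6 rose at 12 h, in the scanner values. The falls were 13.3% of the complex at both times, beside 39.6% and 39.5% of all genes. The rises were 13.3% and 40%, beside 32.1% and 36.2% of all genes, and 1 of the 6 at 12 h was the saturated Cox6a1. Its median change lay above that of complex I at 6 and 12 h, also under quantile normalization. The other scalings subtract 1 value per array, so they cannot change a difference between medians and are no further check. Against all genes the sign of the complex IV median turned under quantile normalization: it lay 0.09 above them at 6 h and 0.12 at 12 h, and at -0.16 and -0.15 under that scaling. No test of the difference between complexes was made, since the genes of a complex are not replicates.

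**Figure D2:**
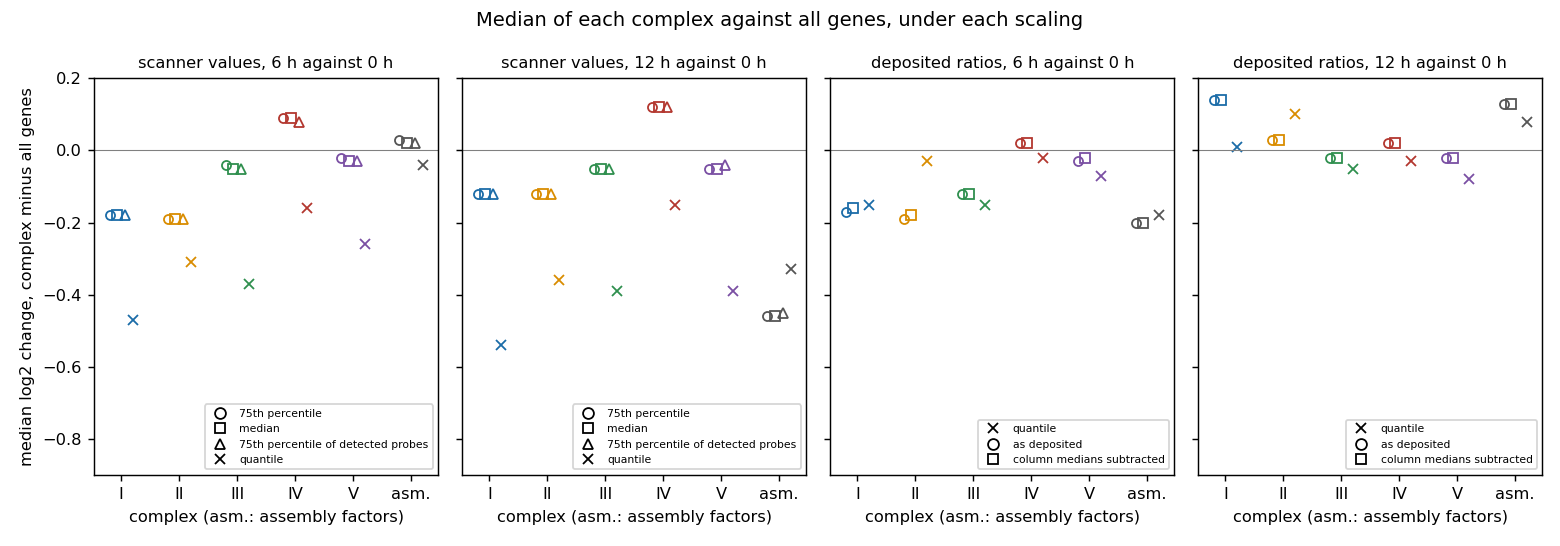
Median log2 change of each complex minus the median of all genes (vertical axis) for each complex (horizontal axis) at 6 and 12 h, with 1 marker for each scaling of the scanner values and of the deposited ratios. In the scanner values complex I lay below complex IV, also under quantile normalization. Complex IV was above all genes, and below them under quantile normalization. The other scalings subtract 1 value per array and cannot change these differences.

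Cox7a2l, which takes part in joining complexes III and IV into a supercomplex, fell in both sources. Its scanner levels were 4.60, 4.58 and 4.57 at 0 h, 3.73, 3.58 and 3.65 at 6 h, 3.75, 3.73 and 3.71 at 12 h and 4.64, 4.68 and 4.66 at 24 h. Its log2 deposited ratios were 0, -0.01 and 0.12 at 0 h, -0.48, -0.64 and -0.62 at 6 h, -0.46, -0.44 and -0.60 at 12 h and -0.56, -0.60 and -0.48 at 24 h. In both sources the samples at 6 and 12 h lay below the start without overlap, and only in the ratios did those at 24 h. The scanner changes were -0.93 at 6 h (adjusted p 1.56e-08, limma) and -0.85 at 12 h (2.42e-08), and the table changes -0.62, -0.54 and -0.58 at 6, 12 and 24 h. It was called lower under every scaling of both sources at 6 and 12 h. With the slide as a block the table change at 24 h was -0.29 and not called (adjusted p 0.0788).

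The isoforms of complex IV gave several contrasts. Cox7a2, the isoform found in most tissues, rose in the scanner values by 0.27 at 6 h and 0.42 at 12 h, which turned to -0.10 and -0.13 under quantile normalization, and rose in the ratios by 0.24, 0.51 and 0.67 at 6, 12 and 24 h. Scanner levels of the gene were 4.61, 4.62 and 4.64 at 0 h, 4.92, 4.78 and 4.98 at 6 h and 5.11, 5.02 and 5.00 at 12 h, with no overlap with the start. Cox7a1, the isoform of heart and skeletal muscle, was called higher at 12 h in the scanner values (0.17, lost when some single arrays were left out) and fell by 0.50 in the ratios at both 12 and 24 h. Cox4i1 was measured, and its partner Cox4i2 was below the background filter. Cox4i1 had scanner changes of -0.13 and -0.09 and table changes of 0.13 and 0.14 at 6 and 12 h, and the call at 6 h in the scanner values was lost when some single arrays were left out. Cox8a, the only Cox8 isoform that passed the filter, was not called at 6 or 12 h in either source.

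Cox6a2, the isoform of heart and skeletal muscle, had the largest rise of the set in the ratios and no call in the scanner values. Its log2 deposited ratios were 0, -0.19 and 0.12 at 0 h, 1.42, 0.94 and 1.47 at 6 h, 2.07, 2.15 and 2.22 at 12 h and 2.83, 2.78 and 2.81 at 24 h. The scanner levels were -2.60, -2.39 and -2.53 at 0 h, -2.44, -2.49 and -2.33 at 6 h, -2.36, -2.72 and -2.34 at 12 h and -2.67, -2.46 and -2.48 at 24 h. In the ratios no time overlapped with the one before, and in the scanner values every time overlapped with the start. The table changes were 1.30, 2.17 and 2.83 (adjusted p 1.63e-08 at 24 h, limma), and the scanner changes 0.08, 0.03 and -0.03. The probe was well above background on all 12 arrays. Its partner Cox6a1, the isoform of most tissues, was saturated on all 12 arrays, so no fold is given for it.

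Cox6b2, the testis isoform, fell in the ratios by 1.06 at 12 h and 1.76 at 24 h on the log2 scale. The ratios were 0.10, -0.08 and 0 at 0 h, -0.15, 0.04 and -0.93 at 6 h, -1.43, -0.51 and -1.20 at 12 h and -2.14, -1.60 and -1.53 at 24 h. Samples at 12 and 24 h lay below the start and those at 6 h overlapped it. With the slide as a block these changes were not called (-0.69 with adjusted p 0.345 at 12 h and -1.24 with 0.199 at 24 h, limma). The scanner changes of -0.36, 0.13 and 0.78 were not called, and with the slide as a block those at 6 and 12 h were -0.80 and -0.81 and called. Cox6b1, the isoform of most tissues, was not called in the scanner values and rose by 0.22, 0.28 and 0.35 in the ratios. Ndufa4, spelled as a complex I gene and assigned to complex IV, was called higher at 6 h by 0.17 in the scanner values (-0.13 under quantile normalization) and by 0.50 in the ratios.

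**Figure D3:**
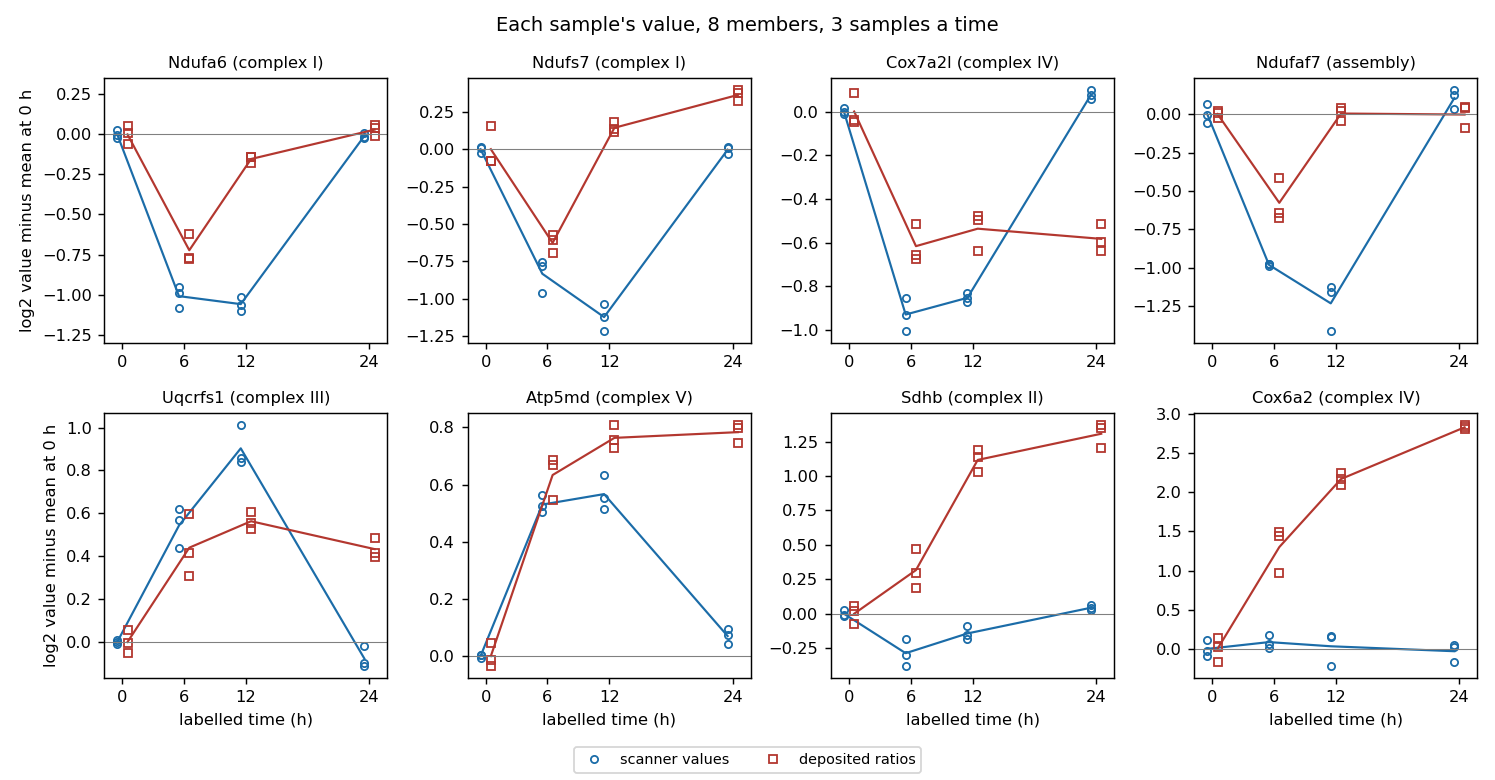
Each sample's log2 value minus the mean of its source at 0 h (vertical axis) against labelled time in hours (horizontal axis) for 8 members, 3 samples a time, with lines through the means. At 6 h Ndufa6, Ndufs7, Cox7a2l and Ndufaf7 lay below the start in both sources and Uqcrfs1 and Atp5md above it. The scanner values labelled 24 h lay near those at 0 h, and over all genes those group means correlated at 0.994. In the ratios at 24 h Cox7a2l, Atp5md, Sdhb, Cox6a2, Uqcrfs1 and Ndufs7 were called, Ndufs7 and Uqcrfs1 not after subtraction of column medians.

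Complex V had 7 falls and 1 rise among 17 members at 6 h in the scanner values, and 6 falls and 4 rises at 12 h. The shares that fell, 41.2% and 35.3%, were near those of all genes, 39.6% and 39.5%, and those that rose were 5.88% and 23.5%, beside 32.1% and 36.2%. Its catalytic core was not uniform. Atp5c1, the gamma subunit that forms the rotating shaft, fell by 0.56 at 6 h and 0.50 at 12 h, and Atp5d, the delta subunit of the same stalk, fell by 0.37 and 0.30. Atp5h, a subunit of the peripheral stalk, fell by 0.28 and 0.24 and had table changes of 0.15 and 0.20, the second -0.07 after subtraction of column medians. Atp5a1 and Atp5b, the alpha and beta subunits that form the catalytic head, were not called at 6 h (0.01 and 0.14), and at 12 h Atp5b was called higher by 0.27. Atp5b was saturated on 1 or 2 arrays of each group. In the ratios Atp5c1 fell by 0.35 at 6 h and had a change of 0.20 at 12 h, or -0.08 after subtraction of column medians, and Atp5d was not called at any time.

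The c-ring of complex V is encoded by 3 genes that give the same mature protein. Atp5g2 had scanner levels of 5.56, 5.65 and 5.63 at 0 h, 5.02, 4.89 and 5.07 at 6 h, 4.94, 4.82 and 4.83 at 12 h and 5.62, 5.57 and 5.64 at 24 h. It fell by 0.62 and 0.75 at 6 and 12 h on the log2 scale (adjusted p 3.93e-06 and 7.70e-07, limma), with no overlap with the start. At 12 h Atp5g1 fell by 0.34 and Atp5g3 differed by 0.01. In the ratios Atp5g2 was not called at 6, 12 or 24 h (-0.17, -0.17 and 0.09), Atp5g1 changed by 0.26 at 12 h (-0.01 after subtraction of column medians) and Atp5g3 by 0.37.

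Atp5md, a small membrane subunit involved in keeping ATP synthase dimers, rose in both sources. Per sample, the scanner levels were 4.63, 4.64 and 4.64 at 0 h, 5.20, 5.14 and 5.16 at 6 h, 5.19, 5.27 and 5.15 at 12 h and 4.71, 4.68 and 4.73 at 24 h. Its log2 deposited ratios were 0, -0.02 and 0.06 at 0 h, 0.70, 0.68 and 0.56 at 6 h, 0.77, 0.82 and 0.74 at 12 h and 0.82, 0.76 and 0.81 at 24 h. The samples at 6 and 12 h lay above the start without overlap in both. The scanner changes were 0.53 and 0.57 (adjusted p 7.79e-07 and 3.87e-07, limma) and the table changes 0.63, 0.76 and 0.78. The table calls were kept under each of its scalings, and the scanner call was kept under each at 6 h.

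Of the 7 assembly factors, 3 fell and 1 rose at 6 h and 4 fell and 2 rose at 12 h in the scanner values. The share that fell was 42.9% at 6 h, near the 39.6% of all genes, and 57.1% at 12 h, beside 39.5%. The 4 falls at 12 h were called under all 4 scalings (share of all genes not given here). Ndufaf7, a methyltransferase needed for the assembly of complex I, had scanner levels of -1.52, -1.45 and -1.57 at 0 h, -2.49, -2.49 and -2.50 at 6 h, -2.92, -2.67 and -2.64 at 12 h and -1.39, -1.36 and -1.48 at 24 h. No sample at 6 or 12 h reached the start. The changes were -0.98 at 6 h (adjusted p 6.35e-07, limma) and -1.23 at 12 h (8.61e-08). In the ratios it fell by 0.58 at 6 h, a call kept under each scaling, and at 12 and 24 h the changes were 0.01 and 0.00.

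Sdhaf4, an assembly factor of complex II, fell by 0.82 and 0.67 at 6 and 12 h in the scanner values. In the ratios it was called lower by 0.20 at 6 h (-0.20 and not called with the slide as a block, adjusted p 0.0823, limma) and higher by 0.46 and 0.61 at 12 and 24 h. Ndufaf4, a complex I factor, turned within the scanner series, from 0.15 at 6 h to -0.70 at 12 h, a difference of -0.85 (adjusted p 8.11e-07, limma). Its ratios changed by -0.11 and 0.27 at the same times, the second of which was 0 after subtraction of column medians. Its scanner levels were 1.09, 1.05 and 1.13 at 0 h, 1.30, 1.19 and 1.22 at 6 h and 0.30, 0.50 and 0.36 at 12 h. The rise at 6 h was lost when some single arrays were left out. Sdhaf2, which helps attach FAD to Sdha, rose by 0.30 at 12 h in the scanner values and was not called in the ratios. Ndufaf3, another complex I factor, was not called in the scanner values (-0.03, -0.14 and -0.01) and rose in the ratios by 0.49, 1.16 and 0.93.

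By gene, 16 members fell in both sources at 6 h, 5 rose in both and 5 were called in opposite directions (18.8%, 5.88% and 5.88%, beside 24.2%, 25.4% and 7.11% of all genes). The last were Atp5l, Ndufa7, Ndufc2, Ndufs8 and Sdhb, each lower in the scanner values and higher in the ratios. After subtraction of column medians from the ratios, 11 members fell in both, 1 rose in both and none was opposite at 6 h in the limma fits (22.5%, 18.5% and 3.94% of all genes). At 12 h 5 fell and 10 rose in both, and 20 were opposite, 19 of these lower in the scanner values. Opposite calls were 23.5% of the members and 15.8% of all genes, calls lower in both 5.88% and 18.3%, and calls higher in both 11.8% and 24.9%. After subtraction of column medians 5 fell and 2 rose in both and 3 were opposite, namely Cox7a1, Ndufaf5 and Sdhb (19.8%, 15.6% and 9.27% of all genes). Under every scaling of both sources Cox7a2l, Ndufa6, Ndufaf7 and Ndufs7 were called lower at 6 h and Atp5md higher, and at 12 h Cox7a2l was called lower. For calls kept in this way the share of all genes is not given here. No member was called in opposite directions by the sources under every scaling at either time.

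**Figure D4:**
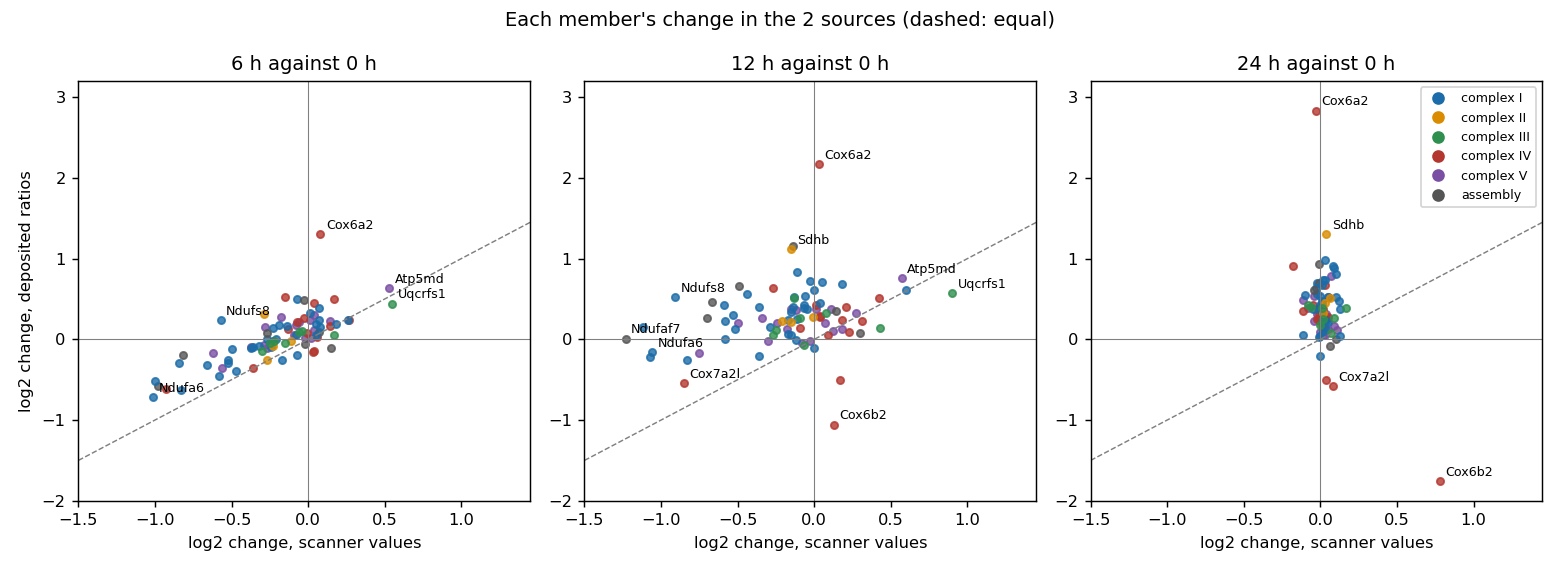
Log2 change of each of the 85 members from 0 h in the scanner values (horizontal axis) against that in the deposited ratios (vertical axis) at 6, 12 and 24 h, coloured by complex, with a dashed line where both are equal. The points ran together at 6 h (r = 0.73), less so at 12 h (r = 0.24), and at 24 h the scanner changes lay near 0 while the ratios ran from -1.76 for Cox6b2 to 2.83 for Cox6a2.

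From 6 to 12 h the sources gave different counts. In the scanner values 16 members were higher at 12 h than at 6 h (26.2% of all genes) and 8 were lower (21.2% of all genes). In the deposited ratios 50 were higher (31.1% of all genes) and 1 was lower (16.9% of all genes). Both counts moved with the scaling: in the scanner values 1 was higher and 1 lower with the array median subtracted, 8 and 27 with the percentile over detected probes, and 5 and 40 with quantile normalization. In the ratios 10 were higher and 1 lower after subtraction of column medians, and none was called with quantile normalization. The shares of all genes under these other scalings are not given here, so these counts are not set beside them. Uqcrfs1 was higher at 12 h than at 6 h by 0.36 in the scanner values, and 0.43 within slide 2, which held 2 arrays of each time. Ndufs7 was higher by 0.77 in the ratios and lower by 0.29 in the scanner values.

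At 24 h limma called no member in the scanner values in either direction (2.29% of all genes were called higher and 1.28% lower), and 0.837% of all genes moved at least 2-fold in either direction. At an unadjusted p under 0.05, 7 of the 85 members passed, beside 20.3% of all genes. A fit of the 24 h and 0 h arrays alone called 6 members higher and 1 lower, and its share of all genes is not given here. In the ratios, under every scaling, 10 members were called higher at 24 h, among them Sdhb, Atp5md, Cox6a2, Cox7a2, Cox7c and Ndufb4, and Cox7a2l and Cox6b2 were called lower. The first 10 hold members of complexes I, II, IV and V and an assembly factor, and none of complex III, which has 8 of the 85 members. The share of all genes called higher under every scaling is not given here. Quantile normalization alone called the same number of members higher, a smaller share than that of all genes given above for it.

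Other genes of energy metabolism are given from fixed lists, by the same calls. No rule set beforehand chose the genes named within the lists, and they do not stand for their list. Over all genes 32.1% rose and 39.6% fell at 6 h and 36.2% rose and 39.5% fell at 12 h in the scanner values, and 40.9% rose and 30.3% fell and then 47.1% rose and 26.8% fell in the ratios. Of 16 electron carriers, ATP and ADP carriers and related genes, 3 rose and 8 fell at 6 h and again at 12 h in the scanner values, and 7 rose and 5 fell at 6 h and 10 rose and 2 fell at 12 h in the ratios. In the scanner values these were 18.8% and 50% at both times, beside the 32.1% and 39.6% of all genes at 6 h, and in the ratios 43.8% and 31.2%, then 62.5% and 12.5%. Gpd2, the mitochondrial glycerol-3-phosphate dehydrogenase that feeds electrons to ubiquinone, rose by 2.11 and 2.67 at 6 and 12 h in the scanner values and by 1.5 and 1.86 in the ratios. Cycs, cytochrome c itself, rose by 1.07 and 1.77, and by 0.56 and 0.66 in the ratios. Both genes were called higher under every scaling of both sources at these times. The median change of their list was -0.12 and -0.39 in the scanner values, and 0.2 and 0.26 in the ratios.

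Of 30 further assembly factors, 12 rose and 7 fell at 6 h and 13 rose and 12 fell at 12 h in the scanner values, and 12 rose and 5 fell at 6 h and 22 rose and 2 fell at 12 h in the ratios. The scanner shares that rose, 40% and 43.3%, and the share that fell at 12 h, 40%, were near those of all genes, 32.1%, 36.2% and 39.5%. In the ratios 73.3% rose at 12 h, beside 47.1% of all genes. Ttc19, a factor of complex III, rose by 1.63 and 1.48 in the scanner values and by 1.14 and 1.08 in the ratios. Tmem70, a factor of complex V, rose by 1.47 and 1.40, and by 0.96 and 1.23. Bcs1l, which inserts the Uqcrfs1 protein into complex III, fell by 1.13 and 1.62, and by 1.09 and 0.64, while Uqcrfs1 itself rose.

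Of 22 genes of the citric acid cycle and pyruvate dehydrogenase, 7 rose and 10 fell at 6 h and 6 rose and 11 fell at 12 h in the scanner values. In the ratios 8 rose and 11 fell at 6 h, and 11 rose and 7 fell at 12 h. The scanner shares at 6 h, 31.8% higher and 45.5% lower, were near the 32.1% and 39.6% of all genes, and at 12 h they were 27.3% and 50%. The ratios had 36.4% and 50%, then 50% and 31.8%. Fumarase, Fh1, fell by 1.19 and 1.34 in the scanner values and by 1.12 and 0.84 in the ratios, and mitochondrial isocitrate dehydrogenase, Idh2, fell by 1.34 and 1.18, and by 1.27 and 0.77. Pcx, pyruvate carboxylase, rose by 1.56 and 0.46, and by 2.18 and 2.53. These 3 genes kept their calls under every scaling of both sources.

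Of 15 regulators of mitochondrial biogenesis, 3 rose and 7 fell at 6 h and 4 rose and 8 fell at 12 h in the scanner values, against 5 and 5 and then 8 and 5 in the ratios. The scanner shares were 20% higher and 46.7% lower at 6 h and 26.7% and 53.3% at 12 h, beside 32.1% and 39.6%, then 36.2% and 39.5%, of all genes. Ppargc1b, a coactivator of respiratory genes, fell by 2.62 and 3.51 in the scanner values and by 1.54 and 0.69 in the ratios. Gabpa, which binds the ETS site counted above, rose by 1.16 and 1.17, and by 0.81 and 0.62. Gabpb1, its partner, rose by 2.19 and 1.83 in the scanner values and by 1.01 and 0.72 in the ratios.

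Of 17 glycolysis genes, 11 rose and 2 fell at 6 h and 13 rose and 4 fell at 12 h in the scanner values. Under quantile normalization these were 8 and 6, then 9 and 5. In the ratios 6 rose and 8 fell at 6 h, and 10 rose and 5 fell at 12 h. The shares that rose were 64.7% and 76.5% in the scanner values, beside 32.1% and 36.2% of all genes, and 35.3% and 58.8% in the ratios, beside 40.9% and 47.1%. The glucose transporter Slc2a1 rose by 1.77 and 1.66 in the scanner values and by 1.03 and 1.10 in the ratios, and Pfkfb3, which makes an activator of phosphofructokinase, rose by 1.27 and 2.90, and by 1.48 and 2.82. A further list was named inhibitors of respiration made by activated cells, and no inhibition was measured. Of its 5 symbols 3 had a named probe, Nos2, Hmox1 and Cybb, and Acod1 had none. These 3 rose at both times in both sources. Nos2 was not well above background on any array at 0 h and was at least 12.8-fold higher at 6 h and at least 44.4-fold higher at 12 h in the scanner values, with a bound set by the dimmest probes well above background at 0 h (means -6.51 measured, -4.50 as bound). Hmox1, a heme oxygenase that releases carbon monoxide, rose by 2.45 and 1.99, and by 4.70 and 4.27 in the ratios. Cybb, the catalytic subunit of the phagocyte NADPH oxidase, rose by 0.70 and 0.81, and by 1.65 and 1.81.

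Markers of cell types were read from fixed lists by the same calls. Over all genes 32.1% rose and 39.6% fell at 6 h in the scanner values, and 36.2% and 39.5% at 12 h. In the ratios these shares were 40.9% and 30.3% at 6 h, 47.1% and 26.8% at 12 h and 41.3% and 31.2% at 24 h. All 10 dendritic markers were well above background at 0 h, and Flt3 and Cd209a were not at 6 and 12 h. In the scanner values 4 rose and 3 fell at 6 h (median 0.15), and 6 rose and 3 fell at 12 h (median 0.29). In the ratios 7 rose and 2 fell at 6 h (median 0.55), and 6 rose and 3 fell at 12 h (median 0.29). At 24 h 3 rose and 6 fell there (median -0.28). All 8 granulocyte markers were above background in every group: in the scanner values 1 rose and 4 fell at 6 h (median -0.22) and 4 rose and 4 fell at 12 h (median -0.10), and in the ratios 3 rose and 5 fell, 1 rose and 5 fell, and at 24 h all 8 fell (median -2.66). All 4 macrophage markers were detected in every group, and in the ratios 1 rose and 3 fell at each time (medians -1.52, -1.94 and -1.07 at 6, 12 and 24 h), while in the scanner values 1 rose and 2 fell at 6 h and 3 rose and 1 fell at 12 h (medians -0.66 and 0.81). Of 6 mast cell and basophil markers 5 were detected in every group, and at 24 h in the ratios 1 of these rose and 4 fell (median -1.13). Within each group 4 of 5 T cell markers were detected, with Lck missing at 0 h and Cd3g at the later times. Of the B cell list Cd79a and Pax5, and of the natural killer list Ncr1, Klrb1c and Gzma, were not well above background at 0 h. Their part in the changes of the respiratory genes was not tested.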

How the data were processed

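Total RNA of 12 samples was labelled with Cy3 and hybridised to Agilent 1-colour arrays. Per the file headers, the deposited spot intensities came from Agilent Feature Extraction 9.1.3.1, whose processed signal is linear. The table of values deposited by the authors holds linear ratios to the median of each probe's 3 values at 0 h, with a lowest ratio of 0.01. Its scaling between columns and the genome build are not given in the sources used here.

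Of 45018 spots per array 1639 were controls. Each log2 processed signal had the 75th percentile of its array subtracted, outlier spots (732 in all, 628 of them on 6 h replicate 2) were left out and the spots of a probe were averaged. Of 41174 probes, 23496 were well above background on every array of at least 1 group. The brightest kept probe stood for its gene, which gave 18407 genes, 11580 with a symbol from RefSeq accessions. Of 17 members with several kept probes none had 1 probe higher and another lower by over 0.2 each on the log2 scale, in the contrasts with 0 h. Probes could still differ in sign where a change was smaller. The largest spread was 0.51, in Ndufv3 in the ratios at 24 h, where the probe used gave 0.10 and the others -0.37 and -0.41. Ndufb2 had no value on 1 array at 6 h and was fitted without it.

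limma 3.58.1 in R 4.3.3 fitted the 4 group means to all 12 arrays, with 8 residual degrees of freedom. Tests were two-sided with Benjamini-Hochberg adjustment over all 18407 genes. The log2 of the deposited ratios was fitted in the same way for the same genes. The script was tested on simulated data. The p-values rest on the spread between 3 samples a group, and precision is limited by how few arrays there are. Contrasts with 0 h share the 0 h arrays. Where a slide leaves 1 array of a group, that array is assumed to vary like the others.

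The naming rule took, per complex and source, the highest and the lowest change at 6 and 12 h, the extremes at 24 h, isoforms, all of complex II and members called in opposite directions, without Cox6a1, which was saturated on every array and has no fold. Values by sample are printed for only some of these, picked after the values were seen, and changes for the others. The members and all lists were chosen with earlier results of these data known. Motif and promoter sequences came from RefSeq, GRCm38.p6. Alternatives were other scalings, normexp background correction with an offset of 50 on median spot signals (the files used hold no mean signal), filters, probe rules, replicate and slide blocks, and each array left out. Some single-gene results and 1 marker list are not reported here.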

Additional observations from a re-analysis of the deposited data

How the results depend on the processing

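Of the recomputed values of named genes, 6060 stayed called or stayed uncalled, 368 lost the call and 79 gained it. In 26 a called value changed sign, and signs of values not called at first were not compared. Counts of members called are given as higher and lower, without the shares of all genes, and are not set against them here. In the scanner values, quantile normalization gave 3 and 68 at 6 h, 2 and 73 at 12 h and 0 and 1 at 24 h. Subtracting the array median gave 3 and 17 at 6 h and 8 and 18 at 12 h, and the 75th percentile over detected probes 6 and 62 at 12 h. With normexp 11 were higher at 6 h, with the slide as a fixed block 19 were lower at 12 h, and at 24 h a fit of only the groups compared gave 6 and 1 and a prior with an intensity trend 1 higher. At 2-fold the counts were 0 and 2 at 6 h and 0 and 4 at 12 h. In the ratios, subtracting column medians gave 4 and 11, 9 and 8, and 27 and 3 at 6, 12 and 24 h, and quantile normalization 2 and 4, 4 and 2, and 10 and 2. The slide as a block left 10, 2 and 0 lower, the fit of only the groups compared 17 higher at 6 h, and 2-fold 1 and 0, 3 and 1, and 2 and 1. The causes were not tested.

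Signs turned under quantile normalization of the scanner values for Cox7a2 (-0.10 at 6 h, -0.13 at 12 h) and Ndufa4 (-0.13 at 6 h), and with the slide as a block for Sdhb at 12 h (0.02). In the ratios at 12 h, subtracting column medians turned Atp5c1 (-0.08), Atp5g1 (-0.01), Atp5h (-0.07), Ndufaf4 (0), Ndufb7 (-0.03), Ndufb8 (-0.14), Ndufv1 (-0.04), Sdha (-0.04) and Sdhc (-0.05). Quantile normalization turned Ndufa7 (-0.17), Ndufc2 (-0.06) and Ndufs8 (-0.07) at 6 h, Atp5h (-0.04), Cox6b1 (0), Ndufa7 (-0.08), Ndufb7 (-0.12), Ndufb8 (-0.01), Ndufs3 (-0.01) and Sdhd (-0.27) at 12 h, and Ndufs7 (-0.05) and Sdhd (-0.18) at 24 h. The slide as a block turned Ndufa6 at 12 h (0.01). The causes were not tested.

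Leaving out each array in turn gave 5 to 10 higher and 37 to 44 lower at 6 h, 14 to 17 and 32 to 41 at 12 h, and 0 to 1 and 0 to 0 at 24 h in the scanner values (1 without 12 h replicate 2 or 3). In the ratios it gave 19 to 30 and 15 to 21, 51 to 61 and 4 to 7 (4 without 0 h replicate 1, 0 h replicate 3 or 12 h replicate 3), and 61 to 68 and 4 to 4. Calls at 6 h of Ndufa7, Ndufc2, Atp5l, Cox4i1, Ndufa4, Ndufaf4 and Ndufaf5 in the scanner values were each lost without some single array.

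Same-numbered samples did not deviate together (median r 0 over 18 pairs in each source, 2 and 1 of them over 0.1). With the replicate number as a block, 6 were higher and 42 lower at 6 h and 16 and 37 at 12 h in the scanner values, and 25 and 17, 54 and 7, and 65 and 4 in the ratios.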
